A study of Rattus norvegicus with 12 samples.

Results

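Matricellular proteins sit in the extracellular matrix and act on cells rather than carrying load, and contractile proteins form the actin bundles with which fibroblasts pull on that matrix. In cultured fibroblasts both groups are known to respond to TGF-beta and to mechanical tension, through SMAD proteins, through serum response factor (SRF) with its myocardin-related coactivators, and through YAP and TAZ, which bind DNA with TEAD proteins. The 9 genes described here were Ccn2, Postn and Tnc among the matricellular proteins, Lox, which cross-links collagen and elastin, Grem1, a secreted antagonist of bone morphogenetic proteins (BMPs), the actin-linked genes Acta2, Acta1 and Tagln, and Myof, a membrane repair protein of the ferlin family. They were chosen by name from genes that stood high in fibroblasts on these arrays. For that reason their differences between the iPS lines and the other lines are given as a description, with no test. They matched 10 probe sets that carry a single gene symbol, and all 9 were among the 10510 genes that entered the tests, of 14218 genes with such a probe set.

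The study asked whether rat induced pluripotent stem (iPS) cells, made with a transposon system, resembled rat embryonic stem (ES) cells in gene expression. It measured 12 Affymetrix arrays with 31099 probe sets, 2 arrays for each of 6 lines. The iPS lines A1 and A2 came from the FHH rat strain and were grown on mitomycin-treated mouse feeder fibroblasts. The lines labelled ES were DAC2 and DAC8, for which no strain is labelled. The lines labelled embryonic fibroblast (EF) were REF1 and REF2, prepared from FHH embryos at e14.5. The iPS and ES cells were kept in 2i medium and collected 5 days after passage, and the EF cells were kept in MEF medium and collected 6 days after passage. Each line is 1 line of its kind, and the labels do not say whether its 2 arrays came from separate cultures, so a p-value between lines rests on the spread of arrays that may be technical repeats.

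Levels are log2 values, and array medians lay between 5.28 and 5.41. A level under 5 was not taken as above background. The arrays labelled DAC8 and REF2 went against their labels. The mean correlation over the genes tested was 0.988 between DAC8 and REF1 and 0.974 between DAC2 and REF2, against 0.614 between the ES-labelled DAC2 and DAC8 and 0.612 between the EF-labelled REF1 and REF2. Of 18 fibroblast markers, 15 reached 5 in DAC8 and 17 in REF1, 5 in DAC2, 6 in REF2, and 9 in each iPS line. All 10 naive pluripotency markers on the array reached 5 in DAC2 and REF2, against 4 in DAC8, 5 in REF1, 5 in A1 and 6 in A2. Of 10 epithelial markers, 10 reached 5 in DAC2 and REF2 and at most 1 in each other line. Of 15 neural markers, 14 reached 5 in each iPS line, 10 in DAC8 and REF1, 6 in DAC2 and 7 in REF2. Lines are named below as labelled, and values are given line by line so that each can be read with or without the lines labelled DAC8 and REF2.

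Across the 6 lines the 9 genes shared their highest levels and differed in what was left elsewhere. Every gene stood highest in DAC8 and REF1, at line means between 8.73 and 13.80. Ccn2 and Myof kept a middle level in DAC2 and REF2 and lay below 5 on all 4 iPS arrays. Lox did the opposite, with a middle level in both iPS lines and values under 3 in DAC2 and REF2. Postn, Tnc, Tagln, Grem1 and Acta1 were below 5 in every array outside DAC8 and REF1, and Acta2 lay near 6 in all 4 of those lines. Array values of this kind do not tell apart fewer cells of a type and less RNA per cell.

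**Figure D1:**
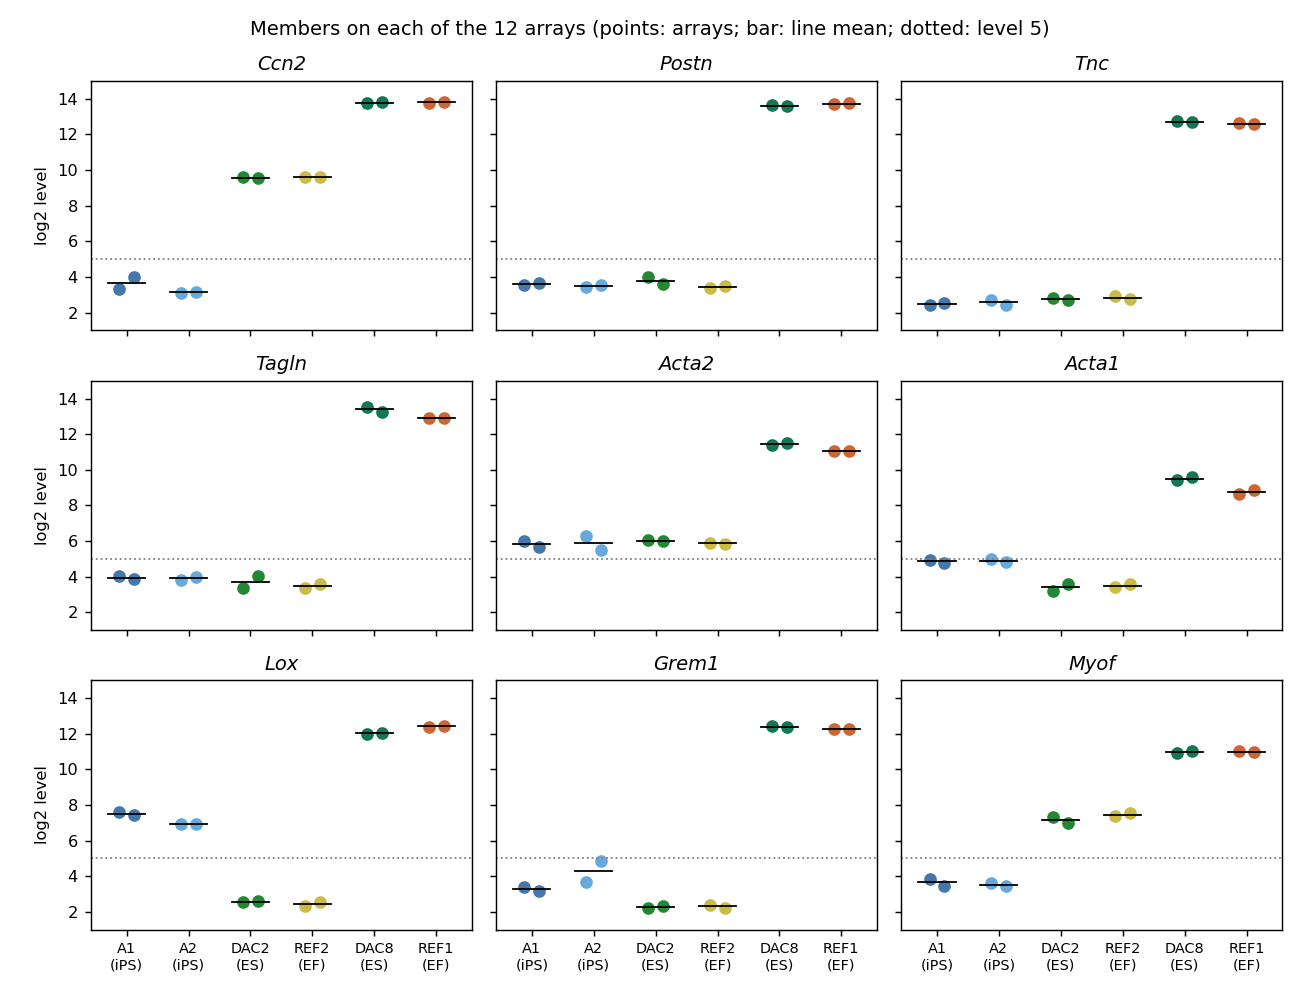
Each panel plots 1 gene, with the log2 level on the y axis and the 6 lines with their labelled cell type on the x axis. Points are arrays, bars are the mean of a line's 2 arrays, and the dotted line marks a level of 5. Ccn2 and Myof form 3 steps, Lox has its middle step in A1 and A2, and the other genes stand high in DAC8 and REF1 alone.

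The start regions of genes from both patterns show what sequence lay upstream of them. The RefSeq promoter table of the GRCr8 assembly held 7 of the 9 genes by symbol, with 250 bases before and 50 bases after the annotated start. Ccn2 and Myof are shown because they kept a middle level in DAC2 and REF2, and Acta2 and Acta1 because they are the actins of the group. The windows, all on the minus strand and printed in the direction of the gene, were chr1:22624565-22624864 for Ccn2, chr1:245234719-245235018 for Myof, chr1:241172454-241172753 for Acta2 and chr19:68784145-68784444 for Acta1. Capitals mark GGAATG on either strand, which is the core of the TEAD binding motif, TATAAA on the gene's strand, and the CArG box bound by SRF with at most 1 G or C in its core.
Ccn2: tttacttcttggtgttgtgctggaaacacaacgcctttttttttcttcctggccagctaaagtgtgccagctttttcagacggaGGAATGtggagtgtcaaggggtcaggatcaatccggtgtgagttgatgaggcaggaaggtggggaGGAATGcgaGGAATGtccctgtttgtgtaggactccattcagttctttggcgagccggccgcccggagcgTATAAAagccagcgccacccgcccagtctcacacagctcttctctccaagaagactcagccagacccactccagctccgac
Myof: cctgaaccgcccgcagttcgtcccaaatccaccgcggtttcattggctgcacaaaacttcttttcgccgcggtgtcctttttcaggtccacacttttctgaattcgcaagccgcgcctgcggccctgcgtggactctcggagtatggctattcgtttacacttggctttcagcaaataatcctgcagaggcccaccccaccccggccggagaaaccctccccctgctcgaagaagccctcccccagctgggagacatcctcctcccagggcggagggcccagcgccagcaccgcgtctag
Acta2: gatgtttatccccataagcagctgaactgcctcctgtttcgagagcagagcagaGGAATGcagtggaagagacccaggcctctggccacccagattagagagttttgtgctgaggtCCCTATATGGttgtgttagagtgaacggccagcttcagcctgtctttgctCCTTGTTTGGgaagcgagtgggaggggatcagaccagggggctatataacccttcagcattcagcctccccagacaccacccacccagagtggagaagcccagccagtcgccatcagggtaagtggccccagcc
Acta1: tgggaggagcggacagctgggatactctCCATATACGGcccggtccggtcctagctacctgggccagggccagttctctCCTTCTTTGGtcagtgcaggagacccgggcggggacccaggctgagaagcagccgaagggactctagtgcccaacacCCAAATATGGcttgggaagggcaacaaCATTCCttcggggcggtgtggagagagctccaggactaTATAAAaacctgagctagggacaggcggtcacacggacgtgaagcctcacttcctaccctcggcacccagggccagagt

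Counted from the annotated start, Ccn2 held GGAATG from positions -166, -101 and -92 and TATAAA from -31. Of 33469 rat promoter windows of this length, 14.2% held GGAATG at least once and 0.0956% held it at 3 or more places. Acta2 held 2 CArG-type matches, from -134 and -84, and Acta1 held 3, from -222, -171 and -94. At least 2 such matches occurred in 0.846% of all windows, and at least 3 in 0.0508%. The match of Acta1 nearest its start was also the only one among the 7 genes with a core of A and T alone, a form found in 1.64% of windows and counted within the looser one. GGAATG also occurred once in Acta2 and once, on the other strand, in Acta1. TATAAA, found on either strand in 14.2% of windows, occurred on the gene's strand in Acta1, Postn and Tnc as well. No match to these motifs lay in the windows of Myof or Grem1, and the AP-1 motif TGANTCA, found in 7.33% of windows, lay in none of the 7. Such matches describe letters in a window, and no binding was measured here.

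Ccn2, also known as connective tissue growth factor, is a secreted CCN-family protein and a standard target of YAP and of TGF-beta. Its arrays read 13.76 and 13.81 in DAC8 and 13.76 and 13.85 in REF1. They read 9.61 and 9.55 in DAC2 and 9.63 and 9.59 in REF2. They read 3.33 and 4.0 in A1 and 3.12 and 3.14 in A2. The 3 pairs of lines did not overlap, and within the upper and middle pairs the arrays of the 2 lines overlapped. The mean of the iPS lines minus DAC2 was -6.18 ± 0.15 (log2, SE), and minus REF2 it was -6.21 ± 0.15. Since the iPS side was under 5, the part of this difference that lies above background amounts to at least 23.9-fold for DAC2 and 24.4-fold for REF2. DAC2 minus REF1 was -4.22.

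Periostin, encoded by Postn, is a matrix protein that binds integrins and supports collagen assembly. It read 13.64 and 13.58 in DAC8 and 13.71 and 13.76 in REF1. The other 8 arrays lay between 3.40 and 4.0, all below 5. Postn was thus measured above background in 2 lines only, at least 391-fold over the level of 5 in DAC8 and 427-fold in REF1.

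Tenascin-C, encoded by Tnc, is a large matrix protein that loosens the adhesion of cells and is made in embryos and healing wounds. Tnc read 12.73 and 12.71 in DAC8 and 12.62 and 12.57 in REF1, and between 2.45 and 2.91 on the other 8 arrays. No array of the iPS, DAC2 or REF2 lines came near 5. Over the 6 line means Postn and Tnc had a Pearson r of 0.999, whereas Ccn2 had 0.809 with Postn and 0.993 with Myof. These values describe 6 points that fall into 3 pairs of lines normalized by the same method, and they carry no p-value.

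Lysyl oxidase, encoded by Lox, oxidises lysines of collagen and elastin so that the fibres can be cross-linked. Lox read 11.999 and 12.07 in DAC8 and 12.40 and 12.44 in REF1. On the iPS arrays it read 7.62 and 7.41 in A1 and 6.96 and 6.94 in A2. In DAC2 it read 2.53 and 2.63 and in REF2 2.31 and 2.58. The iPS lines therefore lay between the other pairs, with differences of -4.80 ± 0.08 from DAC8 and -5.19 ± 0.08 from REF1, and at least 5.72-fold (A1) and 3.86-fold (A2) over the level of 5 that DAC2 and REF2 did not reach. A second Lox probe set, 1368172_a_at, gave the same order of the 3 pairs, with 6.37 ± 0.11 (A1), 5.85 ± 0.01 (A2), 11.16 ± 0.16 (DAC8) and 11.58 ± 0.23 (REF1), and with 2.45 ± 0.12 and 2.42 ± 0.15 for DAC2 and REF2 (mean ± SD, n = 2). Lox and Ccn2 had an r of 0.417 over the 6 line means, the lowest of the 36 pairs of these genes.

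Gremlin 1, encoded by Grem1, binds BMPs and keeps them from their receptors. Its arrays read 12.45 and 12.37 in DAC8 and 12.29 on both arrays in REF1. They read 3.38 and 3.16 in A1 and 3.67 and 4.88 in A2, and between 2.24 and 2.40 in DAC2 and REF2. All 8 arrays outside DAC8 and REF1 were below 5, and the arrays of A2 were the widest pair of the gene, with an SD of 0.85.

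Among the contractile genes, Acta2 encodes smooth muscle alpha-actin, the usual mark of a fibroblast with stress fibres. Acta2 read 11.38 and 11.49 in DAC8 and 11.05 on both arrays in REF1. It read 5.98 and 5.65 in A1, 6.26 and 5.47 in A2, 6.04 and 5.98 in DAC2 and 5.91 and 5.83 in REF2. The iPS arrays spanned the values of DAC2 and REF2, and the mean of the iPS lines differed by -5.60 ± 0.18 from DAC8 and by -5.21 ± 0.18 from REF1. Acta1 encodes the alpha-actin of skeletal muscle. It read 9.41 and 9.59 in DAC8, 8.61 and 8.84 in REF1, and between 3.21 and 4.97 on the other 8 arrays.

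Transgelin, encoded by Tagln, is an actin-binding protein also called SM22-alpha. Tagln read 13.51 and 13.26 in DAC8 and 12.92 and 12.93 in REF1, and between 3.34 and 4.03 elsewhere. Of 10 smooth muscle markers outside the 9 genes, 9 reached 5 in DAC8, 8 in REF1 and 4 in each of the other lines. Cnn1, Itga8, Actg2 and Myocd reached it in DAC8 and REF1 alone, and Lmod1 in DAC8 alone. Mylk reached it in A1 and A2 as well, and Des, Myh11 and Smtn in every line. Synpo2 went the other way and reached it in DAC2 and REF2 alone. Of the 13 skeletal and cardiac muscle markers on the array, 3 reached 5 in DAC8 and REF1 (Des, Myl4 and Tnnc1). Of these, Des also reached it in every other line and Myl4 in A2. For beta-actin, whose 3' probe set minus its 5' probe set reflects RNA integrity, this gap was 0.42 to 0.52 in DAC8 and REF1 and 0.84 to 1.05 in the other 4 lines. Its part in these differences was not tested.

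A further 5 probe sets name Acta2 together with Actc1, the alpha-actin of heart muscle, and so stand for neither gene alone. Probe set 1370856_at read 9.74 ± 0.12 (A1) and 10.50 ± 0.12 (A2), then 5.76 ± 0.07 (DAC8) and 5.74 ± 0.07 (REF1), and 5.00 ± 0.23 (DAC2) and 5.10 ± 0.08 (REF2) (mean ± SD, n = 2). It was highest in the iPS lines, where the probe set of Acta2 alone lay near 6. Probe sets 1374352_at, 1374353_x_at and 1385797_at were likewise highest in A2 and next highest in A1, and 1381861_x_at stayed between 2.87 and 3.25 in line means. These probe sets could not be assigned to Acta2, so no Acta2 level was read from them.

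**Figure D2:**
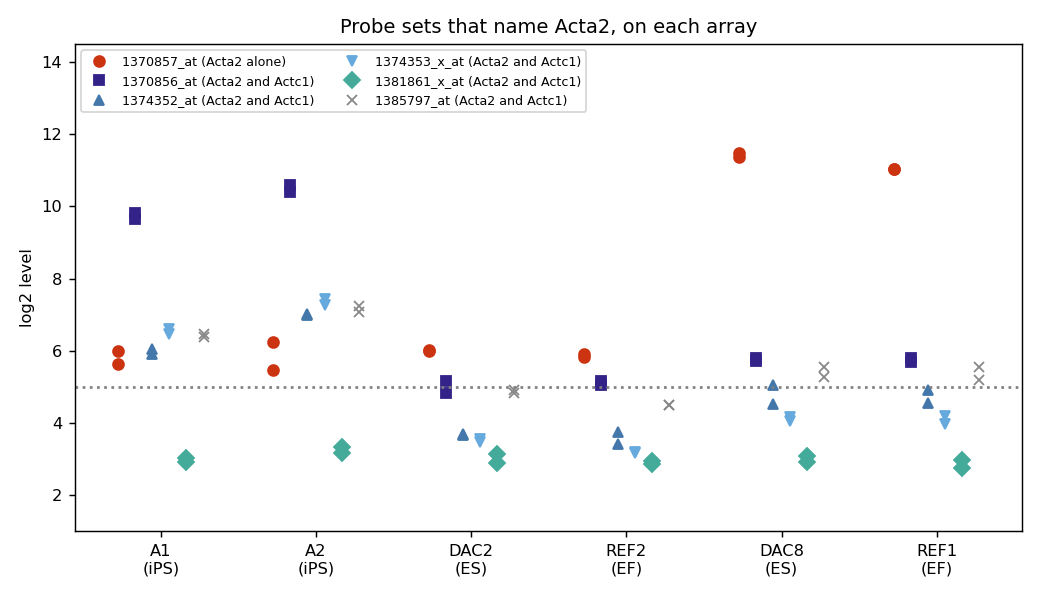
The y axis is the log2 level and the x axis gives the 6 lines with their labelled cell type. Each symbol is 1 array and each shape 1 probe set that names Acta2, alone or with Actc1. Acta2 alone is highest in DAC8 and REF1, whereas 4 of the 5 shared probe sets are highest in A1 and A2.

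Myoferlin, encoded by Myof, takes part in membrane repair and vesicle traffic. Myof read 10.94 and 11.06 in DAC8 and 11.01 and 10.996 in REF1. It read 7.31 and 6.98 in DAC2 and 7.36 and 7.53 in REF2, and between 3.43 and 3.85 on the 4 iPS arrays. DAC2 and REF2 stood apart from both other pairs. The mean of the iPS lines differed by -3.56 ± 0.12 from DAC2 and by -3.85 ± 0.12 from REF2, of which at least 4.43-fold and 5.45-fold lay above background. DAC2 and REF2, where Ccn2 and Myof kept a middle level, were also the lines in which all 10 epithelial markers reached 5, with summed levels of 85.7 to 91.9 against 37.8 to 40.8 on the other arrays. The part of this in the middle levels was not tested.

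By the threshold used for calls (limma, Benjamini-Hochberg adjusted p under 0.05 and a difference of at least 1 log2 unit), 31.7% of all genes tested were called between the iPS lines and DAC8, and 32.6% between the iPS lines and REF1. All 9 genes were lower in the iPS lines by more than 1 log2 unit in both. The way they were chosen makes this a description, with no test. Against DAC2 the share of all genes was 29.9% and against REF2 30.7%. There the same 5 genes differed by more than 1 log2 unit in both comparisons, again with no test. Lox, Acta1 and Grem1 were higher and Ccn2 and Myof lower in the iPS lines. For Acta1 and Grem1 both sides were below 5, so no direction was read. Against the labelled groups as a whole, where each line counts once, 2.46% of all genes were called between iPS and ES and 2.78% between iPS and EF. The 9 genes had median differences of -4.61 and -4.28 there, given with no test. The SE of those differences was 1.78 to 4.82. Each of the ES and EF groups held 1 line with a fibroblast profile and 1 with an ES-like profile.

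The choice of genes did not use the differences inside each pair of lines, so these were tested. The 2 iPS lines differed in 0.209% of all genes, and none of the 9 was called. Only Lox and Acta2 were above 5 in these lines, so for the others no difference could be read above background. Lox was 0.57 ± 0.10 (SE) higher in A1 than in A2 (1.48-fold, limma adjusted p = 0.0221), and the arrays of the 2 lines did not overlap. By adjusted p alone 1.94% of all genes passed, and Lox was the only 1 of the 9. Its adjusted p rose to 0.107 without the first array of A1, to 0.105 and 0.111 without the first or the second array of A2, and to 0.178 when only these 2 lines were fitted. Grem1 differed by -1.01 ± 0.30 (A1 minus A2, limma adjusted p = 0.151), with both lines below 5. Without the first array of A2 this difference became -1.61 and Grem1 was called, and without the second it became -0.41 and was not. With 1 array left in A2, its spread was taken to be that of the other lines. Ccn2 differed by 0.53 ± 0.17 (limma adjusted p = 0.179), also below 5. Without the first or the second array of A1 it differed by 0.87 or 0.20, and over all alternatives its adjusted p lay between 0.0017 and 0.467. The other 6 genes differed by 0.15 or less, and of these only Acta2 was above 5.

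DAC8 and REF1 differed in 1.24% of all genes and in none of the 9 by the threshold used for calls, although by adjusted p alone 20.3% of all genes and 2 of the 9 passed. Acta1 was 0.77 ± 0.14 higher in DAC8 (1.70-fold, limma adjusted p = 0.0050), and the 2 lines did not overlap. Over all alternatives of the analysis its difference stayed between 0.65 and 0.88 and its adjusted p at or under 0.038. Lox was lower in DAC8, at -0.39 ± 0.10 (1.31-fold, limma adjusted p = 0.0232). Leaving out any 1 of the 4 arrays raised the adjusted p of Lox to between 0.064 and 0.116. Tagln and Acta2 lay 0.46 ± 0.19 and 0.39 ± 0.21 higher in DAC8 with limma adjusted p of 0.134 and 0.231. Over the alternatives these adjusted p ranged from 0.028 to 0.432 for Tagln and from 0.028 to 0.470 for Acta2, with no call. Ccn2, Postn, Tnc, Grem1 and Myof differed by 0.13 or less.

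DAC2 and REF2 differed in 3.9% of all genes and in none of the 9. Only Ccn2, Myof and Acta2 were above 5 in these lines, so for the others no difference could be read above background. Of the 2 genes at a middle level there, Ccn2 differed by -0.03 ± 0.17 (limma adjusted p = 0.90), and Myof by -0.30 ± 0.14 (DAC2 minus REF2, limma adjusted p = 0.114), with arrays that did not overlap. Without the first or the second array of DAC2 the difference of Myof became -0.46 or -0.13, and its adjusted p lay between 0.047 and 0.538 over all alternatives. Acta2 differed by 0.14 ± 0.21 (limma adjusted p = 0.60). By adjusted p alone 47.5% of all genes passed, and of the 9 only Postn, 0.34 ± 0.12 higher in DAC2 (limma adjusted p = 0.0418) with both lines below 5. In 11 alternatives the adjusted p of Postn rose to between 0.057 and 0.278, the highest without the first array of DAC2.

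**Figure D3:**
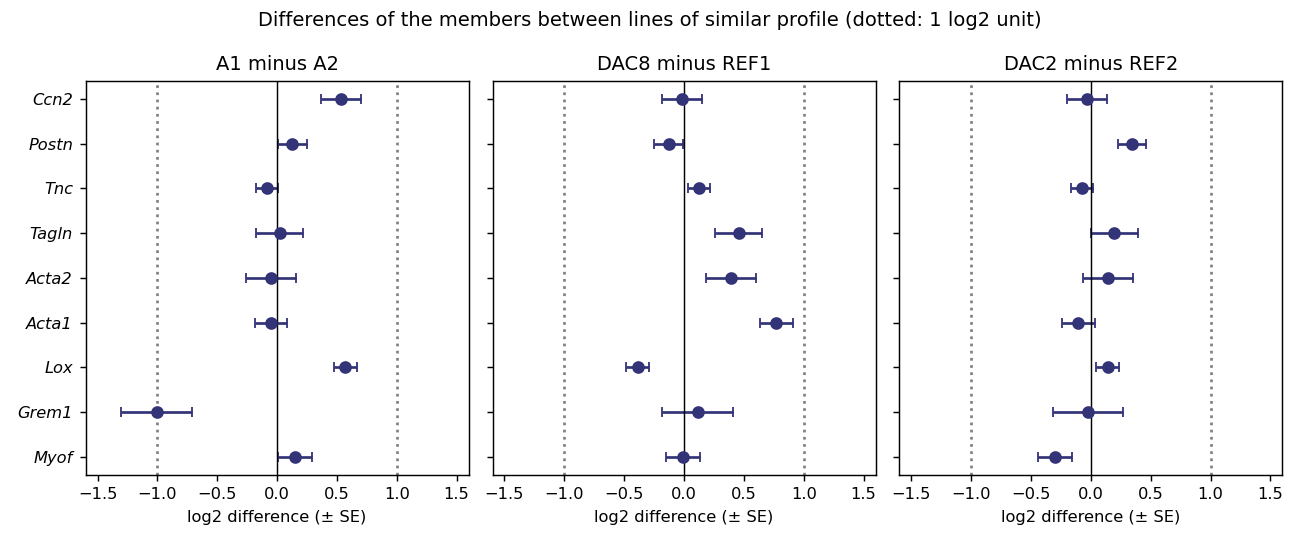
Points are differences in log2 level between the 2 lines named above each panel, bars are standard errors from limma, and dotted lines mark 1 log2 unit. Lox (A1 minus A2) at 0.57 and Acta1 (DAC8 minus REF1) at 0.77 are the largest differences with an adjusted p under 0.05, and Grem1 (A1 minus A2) reaches -1.01 with the widest error.

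Between the groups as labelled, ES minus EF, no gene of the 10510 was called by limma (0% of all genes, and 25 at an unadjusted p under 0.05). The 9 genes differed by 0.33 or less, with standard errors of 1.78 to 4.82. Without the arrays labelled DAC8 and REF2 this comparison became DAC2 against REF1. That left a single line on each side, so differences are given without calls. All 9 genes were lower in DAC2. Both sides were above background for Myof (-3.86), Ccn2 (-4.22) and Acta2 (-5.04). For the other 6 DAC2 was below 5, so only lower bounds hold, with REF1 over the level of 5 by 3.73 (Acta1), 7.29 (Grem1), 7.42 (Lox), 7.93 (Tagln) and 8.74 (Postn), and Tnc between Lox and Tagln.

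The genes around these 9 in their pathways were counted in 9 lists that leave the 9 out, with 137 genes tested. Against DAC8, 103 of the 137 were called, 98 of them lower in the iPS lines, and against REF1, 104 were called and 99 were lower. The share of all genes called lower was 15.6% and 15.7%. Against DAC2, 56 of the 137 were called, 38 higher and 18 lower in the iPS lines, where 16.9% of all genes were higher and 13% lower. Against REF2, 55 were called, 32 higher and 23 lower, beside 16.2% and 14.6% of all genes. The median difference over all genes was 0.15 or less in size in these comparisons. The lists were chosen with results of these arrays known, so their counts are a description.

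Matricellular proteins other than the 9 genes mostly followed the same split. Of 16, 11 were lower against DAC8 and 13 against REF1, with median differences of -5.13 and -4.71, and 1 was higher in each. Against DAC2, 3 were higher and 2 lower, and against REF2, 3 and 3. Spp1, which encodes osteopontin, had line means of 5.06 and 4.92 in A1 and A2, 9.23 and 9.27 in DAC2 and REF2, and 12.12 and 12.73 in DAC8 and REF1. Sparc, a collagen-binding matrix protein, differed by -5.62 ± 0.06 between the iPS lines and REF1 and lay between 7.15 and 8.19 in A1, A2, DAC2 and REF2. Tgfbi, an integrin ligand induced by TGF-beta, was 2.86 ± 0.06 higher in the iPS lines than in DAC2 and 1.69 ± 0.06 higher than in REF2. It was lower than in REF1 (-1.25 ± 0.06) but was not called against DAC8 (0.13 ± 0.06).

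Ccn1, the CCN-family relative of Ccn2 and also a YAP target, was the 1 gene of the 137 called between the iPS lines (0.73%, against 0.209% of all genes). Its mean was 7.39 ± 0.03 in A1 and 5.88 ± 0.01 in A2 (SD, n = 2), a difference of 1.51 ± 0.09 (limma adjusted p = 3.3e-05). In DAC2 it was 6.80 ± 0.09 and in REF2 6.47 ± 0.19, so Ccn1 in the iPS lines fell on both sides of the ES-like lines, unlike Ccn2.

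In the collagen processing list, where Lox belongs, 12 of 13 genes were lower in the iPS lines than in DAC8 and 13 of 13 lower than in REF1, with medians of -3.30 and -3.53. Against DAC2, 7 were higher and none lower, and against REF2, 6 were higher and none lower, with medians of 1.38 and 0.80. Serpinh1, the collagen chaperone HSP47, was 2.10 ± 0.06 higher than in DAC2, 1.47 ± 0.06 higher than in REF2 and lower than in REF1 (-3.53 ± 0.06). Plod2, a collagen lysyl hydroxylase, was 2.36 ± 0.05 higher than in DAC2, 1.40 ± 0.05 higher than in REF2 and lower than in REF1 (-2.53 ± 0.05). Both genes had the order of the 3 pairs of lines that Lox had. Serpinh1 has a second probe set below 5 in every line, and with the mean of both the difference from REF2 was 0.68 and was not called.

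Of 27 contractile and actin-linked genes, 23 were lower in the iPS lines against DAC8 and the same number against REF1, and none was higher. Against DAC2, 6 were higher and 5 lower, and against REF2, 4 and 6. Of its 4 genes with the highest mean levels, 3 were called in none of these 4 comparisons. Actg1, a cytoplasmic actin, differed by -0.06 ± 0.04 from DAC2 and -0.38 ± 0.04 from REF1, Cnn3, a calponin, by -0.15 ± 0.05 and -0.08 ± 0.05, and Tpm3, a tropomyosin, by -0.58 ± 0.04 and -0.31 ± 0.04. The sign of Tpm3 against DAC8 and REF1 turned with the mean of its probe sets (0.079 and 0.10). The other one, Fhl1, a LIM-domain protein of muscle and fibroblasts, was called lower than in DAC8 and than in REF1 (-2.25 ± 0.05 against REF1) and did not reach the threshold against DAC2 (-0.73 ± 0.05).

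Among 13 regulators of SRF and TEAD, 8 were lower in the iPS lines against DAC8 and 9 against REF1, and 3 were higher and 3 lower against DAC2. Srf itself was called lower than in REF1 (-1.16 ± 0.06) and fell short of 1 log2 unit against DAC8 (-0.92 ± 0.06). Tead1 was called lower than in DAC8 (-1.15 ± 0.06) and fell short against REF1 (-0.95 ± 0.06), where the mean of its probe sets gave -1.04 and a call. In contrast, Tead2 was 1.44 ± 0.06 higher than in DAC2 and 1.13 ± 0.06 higher than in REF2. With the mean of its probe sets Srf fell short against REF1 too, at -0.79. Of 18 YAP and TEAD target genes, 15 were lower against DAC8 and 14 against REF1, while 7 were higher and 1 lower against DAC2. Crim1, a transmembrane protein that binds BMPs, was that 1, at -2.43 ± 0.08, and Amotl2, a junction protein that restrains YAP, was 1.49 ± 0.06 higher. Against REF2, 6 genes of this list were higher and 4 lower. Ccn2, lower in the iPS lines than in DAC2 and REF2, thus had the direction of the smaller group of called genes. Its own difference was given with no test.

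For the TGF-beta and activin list, 11 of 20 genes were lower against DAC8, 10 against REF1, and 4 were higher and 3 lower against DAC2. Pmepa1, a target that dampens the pathway, was lower than in REF1 (-3.75 ± 0.06), and Skil, a SMAD corepressor, was 1.31 ± 0.05 higher than in DAC2. In the BMP list, to which Grem1 belongs, 8 of 16 were lower against DAC8, 7 against REF1, and 6 were higher and 2 lower against DAC2. Fstl1, a secreted follistatin-like protein, was 3.39 ± 0.07 higher in the iPS lines than in DAC2, 1.91 ± 0.07 higher than in REF2 and lower than in REF1 (-2.71 ± 0.07). Of 13 receptors of matricellular proteins, 10 were lower against DAC8 and REF1 alike, among them Itgb1, the shared beta subunit of many integrins, at -2.41 ± 0.05 and -2.45 ± 0.05. Of 4 ferlins and EHD proteins, 3 were lower against DAC8 and REF1. Dysf, the ferlin dysferlin, was lower in the iPS lines than in REF1 (-2.89 ± 0.16). Unlike Myof, it was 1.09 ± 0.16 higher in the iPS lines than in DAC2. Its mean was below 5 in DAC2 (4.07) and in A2 (4.95), and 5.38 in A1. A second Dysf probe set was below 5 in all of these lines. The call against DAC2 was lost with equal array medians (1.00) and with the mean of the gene's probe sets (0.70).

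**Figure D4:**
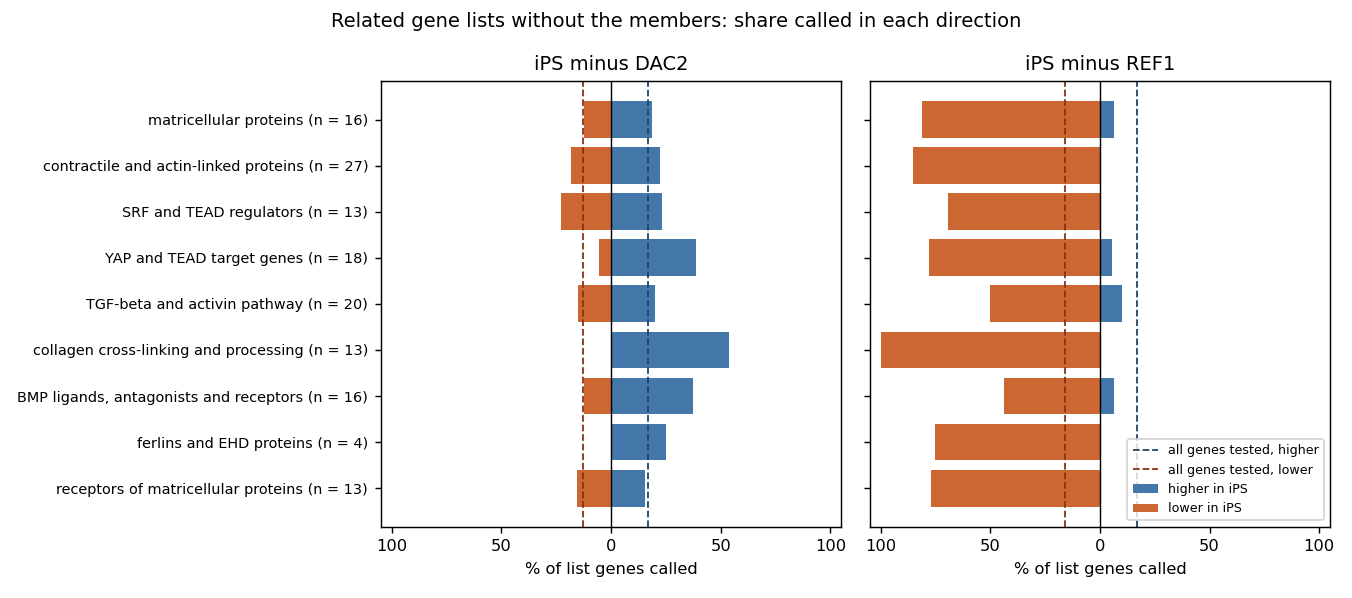
Bars give the percentage of each list's genes called higher (right of 0) or lower (left of 0) in the iPS lines than in DAC2 and than in REF1, with the number of genes tested beside each name. Dashed lines mark the shares of all genes tested. Against REF1 every list has more genes called lower than higher. Against DAC2 the collagen processing list has 7 of 13 genes on the higher side and none on the lower.

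The genes closest to each of the 9 were those with the highest Pearson r over the 6 line means among the other genes tested, 3 for each. For Ccn2 these were C5h1orf216, Fstl3 and Spp1, with r from 0.998 to 0.999, and for Myof they were Tes, Actn1 and Ctsa, with r from 0.999 to 1.00. Fstl3 encodes a secreted binder of activin, Tes and Actn1 encode proteins of actin-bound adhesions, and Ctsa encodes a lysosomal carboxypeptidase. For Lox they were Thy1, Fbn2 and Ssbp2, with r from 0.999 to 1.00. Thy1, a fibroblast and neuronal surface protein, had line means of 6.56 and 6.28 in A1 and A2, 3.30 and 3.18 in DAC2 and REF2, and 9.77 and 9.76 in DAC8 and REF1. Fbn2 encodes a fibrillin of the elastic fibres.

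For the remaining genes the closest were Ogn, Il1rl1 and Mboat7 (Postn), Adcy4, Fbln5 and Cnn1 (Tnc), Cyp1b1, Tgfb3 and Ccdc80 (Tagln), Has2, Pkd2 and Ccn5 (Acta2), Smarcd3, Parva and Micall2 (Acta1) and Slit2, Ccdc9b and Dip2a (Grem1). Of 10501 genes, 50 had an r of at least 0.99 with Ccn2 and 61 with Myof, 95 with Acta1, 103 with Lox, 128 with Grem1, and 187 to 210 with Acta2, Postn, Tnc and Tagln. The points of such a correlation are 6 lines in 3 pairs, so a high r says only that a gene ranked and spaced those pairs alike. For Postn, Tnc, Tagln, Grem1 and Acta1 the only step above background was the one up to DAC8 and REF1.

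**Figure D5:**
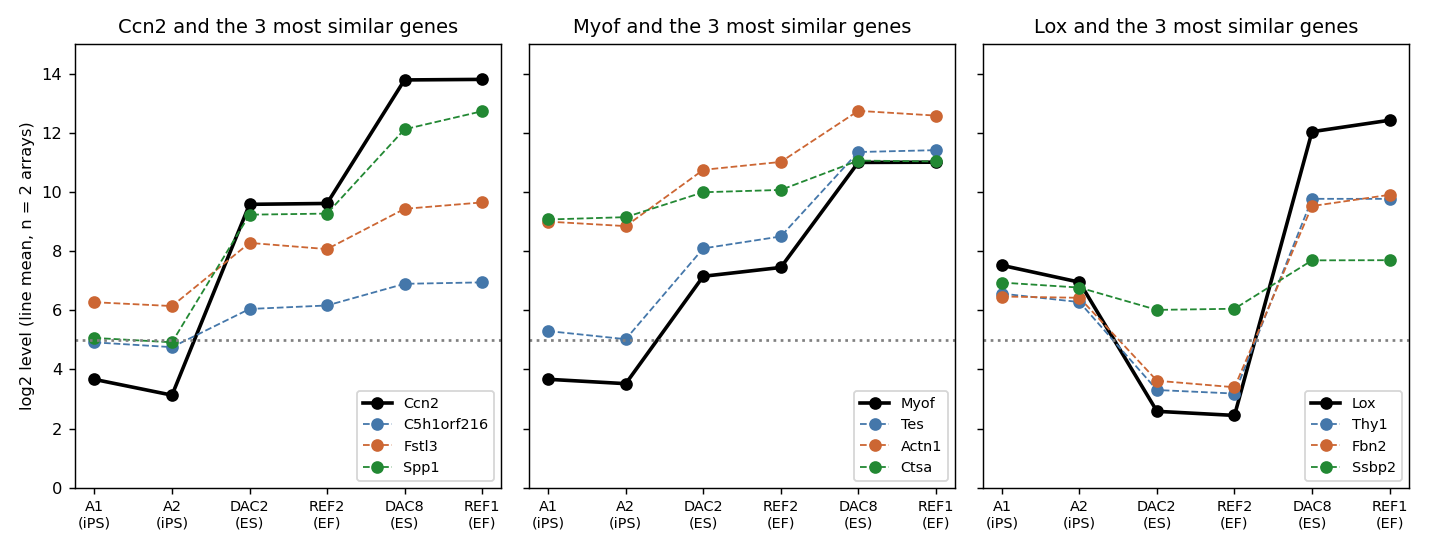
The y axis is the log2 level (mean of a line's 2 arrays) and the x axis the 6 lines with their labelled cell type. The black line is Ccn2, Myof or Lox and the dashed lines are the 3 genes with the highest Pearson r over the 6 means. Ccn2 and Myof rise from A1 and A2 through DAC2 and REF2 to DAC8 and REF1, whereas Lox is lowest in DAC2 and REF2.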

How the data were processed

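Total RNA (about 100 ng) from 12 cell samples was labelled for Affymetrix rat arrays. The deposited values are log2 levels per probe set, made by the authors with RMA in Partek 6.2, per the submitters' processing notes. Joint normalization of the 12 arrays is not stated in these sources. Of 31099 probe sets, the platform table gives 20832 a single symbol, 436 several and 9831 none here. A gene was represented by its brightest probe set on average over the arrays, and 10510 genes with a cell type mean of at least 5 were tested.

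Lines were compared with limma 3.58.1 in R 4.3.3 (lmFit and eBayes, 6 lines as the factor, Benjamini-Hochberg over all genes tested), and labelled cell types on line means. A call needed an adjusted p under 0.05 and at least 1 log2 unit. The rule on adjusted p alone was added after the data were seen. The procedure was tested on simulated data. In these the lines of a group lay closer together than the lines labelled ES or EF did for the 9 genes. That test therefore does not cover the comparison of those groups here. The number of arrays, 2 a line, limits the precision. Genes named beyond the 9 were the 4 with the highest mean in each list, those called between lines of like profile (at most 6 a comparison), and the 3 closest by Pearson r. The 9 genes and the lists were chosen with earlier results of these data known. Alternatives covered the filter (none, or 6), normalization (quantile, equal medians), an intensity trend, probe set choice, blocks, the lines fitted and leaving out arrays.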

Additional observations from a re-analysis of the deposited data

Results flagged for a closer look

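A signal outside the main measurement appeared in 4 of the 5 probe sets that name Acta2 together with Actc1, which were left out of the gene levels because they carry several symbols. In each, the iPS arrays read above every array labelled EF and above 5. The median of the 4 iPS arrays was 10.12 in 1370856_at, 6.52 in 1374352_at, 6.93 in 1374353_x_at and 6.77 in 1385797_at. Actc1 had no probe set of its own among those read here, and of the skeletal and cardiac muscle markers only Des reached 5 in A1 and only Des and Myl4 in A2. Which of the 2 actins these probe sets measured was not tested.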

How the results depend on the processing

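Counts of calls among the 9 genes were 0 in every tested comparison of lines except under the settings given here. For A1 against A2, 1 gene (Grem1) was called with an intensity trend, and leaving out 1 array gave 0 to 1 (1 without the first array of A2). By adjusted p alone, a rule chosen after seeing the data, 1 gene passed for A1 against A2, 2 for DAC8 against REF1 and 1 for DAC2 against REF2. For ES against EF, leaving out the arrays labelled DAC8 and REF2 left 1 line on each side, so no calls are given. Postn came to -9.94, Tnc -9.84, Tagln -9.25, Acta2 -5.04, Acta1 -5.33 and Grem1 -10.00 there, turned from small positive differences. DAC2 was below 5 for all of these but Acta2. Since the 9 genes were chosen from genes high in fibroblasts, their differences in DAC2 against REF1 are a description. For iPS against ES or EF, leaving out these arrays left DAC2 or REF1 as the only line on that side. The counts given below for that setting rest on the spread between A1 and A2, with no replicate line for ES or EF. Of the 137 pathway genes, 2 were called for iPS against ES and 3 for iPS against EF on line means (2.46% and 2.78% of all genes). These became 7 and 7 with the line as a random block (4.84% and 5.34% of all genes), 26 and 25 with arrays and no line block (14.3% and 14.9%), and 56 and 104 when the arrays labelled DAC8 and REF2 were left out (29.8% and 32.5%).

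With the replicate number as a block beside the line, 6 were called for iPS against ES and 6 for iPS against EF (4.54% and 4.78% of all genes), and none of the 9 genes was called in the 4 tested comparisons. Over 15 pairs of lines, same-numbered arrays deviated together with r from -0.08 to 0.24 (median 0.02), and 3 pairs passed 0.1. Whether the replicate numbers pair the arrays was not tested further. The adjusted p of Postn (DAC2 against REF2) became 0.0578 under this block.

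Small differences changed sign. Grem1 (DAC2 minus REF2) became 0.0014 with equal array medians, Tnc (ES minus EF) -0.014 and P4ha1 (iPS minus REF2) 0.036 after quantile normalization. With the mean of a gene's probe sets, Tpm3 became 0.079 against DAC8 and 0.10 against REF1, and Ehd1 0.21 and 0.27. Leaving out 1 array gave A1 minus A2 from -0.21 to 0.046 for Tnc, -0.058 to 0.10 for Tagln, -0.44 to 0.35 for Acta2, -0.13 to 0.031 for Acta1, -0.041 to 0.34 for Myof. DAC8 minus REF1 ran from -0.066 to 0.029 for Ccn2, -0.069 to 0.054 for Myof. DAC2 minus REF2 ran from -0.062 to 0.0027 for Ccn2, -0.15 to 0.54 for Tagln, -0.29 to 0.076 for Acta1, -0.11 to 0.058 for Grem1. Tnc (ES minus EF) ran from -0.013 to 0.062, P4ha1 and Ehd2 (iPS minus REF2) from -0.090 to 0.058 and from -0.10 to 0.026, and Ehd4 (iPS minus DAC2) from -0.099 to 0.0045. Apart from the block settings and the arrays left out, the cause of these changes was not tested. Levels of the 9 genes shifted by at most 0.09 under the other normalizations. With 2 arrays a line, and values under 5 not shown above background, small differences are not resolved.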

Other observations

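Between the lines with an ES-like profile, 9 of the 137 pathway genes were called (6.57%, against 3.9% of all genes), 8 of them higher in REF2 than in DAC2. The 6 with the largest differences were F3, the tissue factor of blood clotting (-1.73 ± 0.14 for DAC2 minus REF2, with both means below 5), Plod1, a lysyl hydroxylase (-1.69 ± 0.16, with DAC2 at 4.24, below 5, and REF2 at 5.93), Gadd45a, a stress-induced gene (-1.54 ± 0.08), Fstl1 (-1.47 ± 0.08), Fbln2, a fibulin of the matrix (-1.42 ± 0.13), and Cald1, an actin-binding caldesmon (-1.19 ± 0.09, and -0.92 and not called with the mean of its probe sets). Their limma adjusted p lay between 1.6e-06 and 5.2e-05. Of 18 fibroblast markers 5 were at or above 5 in DAC2 and 6 in REF2, and the summed level of the 18 was 85.4 to 86.3 on the arrays of DAC2 and 89.0 to 90.9 on those of REF2. The sum of 10 epithelial markers was 85.7 to 86.2 in DAC2 and 91.1 to 91.9 in REF2, and that of 10 naive pluripotency markers 100.5 to 100.9 and 97.5 to 98.0. The part of this in the differences was not tested. Between DAC8 and REF1, 7 of the 137 were called (5.11%, against 1.24% of all genes), 2 higher and 5 lower in DAC8, among them F3 at 1.06 ± 0.14, Tgfbi at -1.38 ± 0.06 and Fbln2 at -1.12 ± 0.13. Here 15 of 18 fibroblast markers reached 5 in DAC8 and 17 in REF1, with summed levels of 169.4 and 182.8, and their part was not tested either.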
